A study of Mus musculus and Rattus norvegicus with 2 samples.

Results

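Piwi-interacting RNAs (piRNAs) are small RNAs of the germ line that are loaded into PIWI proteins and guide the silencing of transposons. In the testis most are cut during meiosis from long single-stranded precursors, many of them non-coding transcripts, and uridine is favoured at their first base. When 2 piRNAs of opposite strands make each other, their 5′ ends overlap by 10 bases, and the partner of a read that starts with uridine carries adenosine at base 10. The reads described here were labelled piRNA in the deposited tables of sperm small RNAs, were 24 to 32 nt long and began with T, the DNA letter for uridine. They numbered 4057 of 89179 listed sequences in the mouse and 3089 of 137388 in the rat.

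Purified sperm came from the cauda epididymis, where mature sperm are held before ejaculation, of C57BL/6 mice aged 2 months and of young adult Sprague Dawley rats of 450 g. No treatment or genetic change is given for either, and the labels do not say how many animals were pooled. RNA of 18 to 45 nt was sequenced in 1 library per species, so no difference below has a replicate check and no test was made. The members held 14404 of 691381 mouse reads (2.08%) and 9254 of 2102735 rat reads (0.440%). Intervals are at 95% and cover counting error only, and a count of 0 allows up to 0.0208% of the mouse and 0.0324% of the rat member reads, taking 3 counts as the limit. Length, start base and label were fixed by the way the members were chosen and are not findings.

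Several things touch every value. Identifiers run to 167458 in the mouse table and to 200389 in the rat table, and 78279 and 63001 of them are not listed, so all shares are of the listed reads. Of the mouse members, 84 carry no count and enter only the numbers of sequences. Markers of the male germ line (5 of 5 miRNAs with reads in each library) summed to 557 RPM (reads scaled to an equal library total) in mouse sperm and 3224 RPM in rat sperm. Those of smooth muscle and stroma (3 of 3) summed to 3489 and 401 RPM, and those of the epididymal epithelium (5 of 5) to 336 and 61.8 RPM. Blood cell miRNAs (4 of 6 and 3 of 6) summed to 60.7 and 1.43 RPM, with miR-142-3p at 0 in both, miR-150-5p at 0 in the mouse and miR-451a and miR-486-5p at 0 in the rat. The part of other cells in the results was not tested, and in bulk RNA fewer cells of a type and less RNA per cell cannot be told apart.

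The label covered both fragments of common RNAs and sequences that did not match reads labelled as such RNAs in their own library. A rat pair is shown first because the member stands 1 base from a more abundant sequence. The second line is the closest more abundant tRNA-labelled sequence of the same length, and capitals mark the base that differs.
Rat member, 229 reads: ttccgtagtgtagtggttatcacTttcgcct
tRNA-labelled, 2156 reads: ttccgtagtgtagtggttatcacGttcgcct
Both lie just inside the 5′ end of tRNA-Val, as known from its textbook sequence. Counted from 1 at the 5′ end, the change from the tRNA-labelled to the member sequence is G24T.

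In the rat the 4 most abundant members matched their piRNA entries with 0 or 1 mismatches. The first 3 were these.
Rat member, 938 reads: TCCCAtatggtctagcggttaggattcctg
Rat member, 722 reads: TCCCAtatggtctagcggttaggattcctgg
Rat member, 257 reads: TCCCAtatggtctagcggttaggattcct
Capitals mark the first 5 bases here and, where not said otherwise, below. These are the 5′ end of a tRNA in 3 lengths, a form of 26 nt had 237 reads, and all 4 shared 18-mers with tRNA-labelled reads. The third mouse member, TGGGAataccgggtgctgtaggctt with 541 reads, holds the 3′ end of 5S rRNA and shared 18-mers with rRNA-labelled reads. It also matched exactly in sense to the 3′ UTR of Tmem38b, on the plus strand of chromosome 4 at 53860747 to 53860771 in GRCm38, so the read alone does not tell the sources apart.

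Fragments like these held many reads but few sequences. Members that shared an 18-mer with tRNA-labelled reads of their library made up 51.9% of mouse member reads (51.1 to 52.7) with 218 sequences. In rat sperm they made up 44.9% (43.8 to 45.9) with 372 sequences. Sharing with rRNA-labelled reads was rarer, at 6.95% of mouse member reads over 87 sequences and 3.70% of rat member reads over 38. With either label, the share was 58.8% for mouse reads (58.0 to 59.6) against 48.6% for rat reads (47.5 to 49.6). Without the 10 most abundant members of each library these shares were 25.2% and 24.9%, so the level and the difference rested on a few abundant sequences. Counted over distinct sequences it was 7.47% and 13.3%, so the order of the species turned. Among members with 0 mismatches to their entry, the order of the reads turned as well, to 19.1% for the mouse against 35.3% for the rat.

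A large part of the sharing members lay close to a more abundant tRNA- or rRNA-labelled sequence of the same length. In the mouse 135 of 303 were 1 substitution away and 47 were 2 away. In the rat 182 of 410 were 1 away, with 1243 reads, and 60 were 2 away, with 116 reads. No such neighbour was found for 121 mouse members and for 168 rat members with 3134 reads, among them the abundant rat forms printed above. Base 23 held 11.1% of the mismatches of the mouse members and 10.3% of those of the rat members, where base 30 held more, with 13.9%. Over all listed sequences, base 23 was also the most often mismatched, with 8.97% for the mouse against 9.63% for the rat.

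Reads with the piRNA label that began with another base shared 18-mers in larger part. In the same length window, 87.1% of such mouse reads, from 965 sequences, and 84.2% of such rat reads, from 1813, shared one with tRNA or rRNA labels. The share of T at base 1 among all piRNA-labelled reads of 24 to 32 nt, which only describes the choice, was 68.7% for the mouse against 13.95% for the rat. Over distinct sequences it was 80.8% and 63.0%. Setting aside the sequences that share an 18-mer with tRNA or rRNA labels gave 87.6% and 34.5% of reads, a difference of 53.1 percentage points against 54.7 without that step. With shared 14-mers, a choice made after seeing the data that also covers mitochondrial labels, the shares were 87.7% and 81.9%, a difference of 5.83 percentage points. Of the rat reads left by the 18-mer step, 59.5% (8206 reads) began with A, most of them of 1 sequence family described below. The 14-mer step set most of these aside, so the difference of 53.1 rested largely on them.

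The other members, 3753 sequences with 5935 reads in the mouse and 2679 with 4761 in the rat, held no 18-mer of tRNA-, rRNA- or mitochondrially labelled reads. They are called unshared members below. The 5 most abundant of each library show how they look, in falling order of reads.
Mouse, piR-105550, 74 reads: TACGAgatcgtcccttaaagctcaaaggac
Mouse, piR-114402, 67 reads: TTGGActtctggtctccagttctcgagc
Mouse, piR-8355, 43 reads: TATGAtcgtgacctttcccgccttgaccc
Mouse, piR-22463, 42 reads: TGGGTgtttaagaacatatgagctggcagg
Mouse, piR-132229, 35 reads: TTTCAcagatgggggaaactgaggccc
Rat, rno_piR_018525, 77 reads: TAGGAatctgtatgctttcaaacgggcta
Rat, rno_piR_013148, 56 reads: TTTTGtagaattgtaactgccaccatagt
Rat, rno_piR_012308, 52 reads: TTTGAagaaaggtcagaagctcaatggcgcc
Rat, rno_piR_035244, 47 reads: TTTAAtcccagatctcaggaagcagaacc
Rat, rno_piR_007868, 44 reads: TAGGCtggatccatgtatgcaaatgtgact
All 10 matched their entry with 0 mismatches, and the highest count was 74 (58.1 to 92.9) in the mouse and 77 (60.8 to 96.2) in the rat.

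The unshared members were thinly spread. Of the mouse ones 74.7% and of the rat ones 77.7% were seen in a single read, and their 10 most abundant sequences held 6.39% of mouse reads (5.78 to 7.04) against 9.998% of rat reads (9.16 to 10.9). Over all members the 10 most abundant held 44.9% for the mouse against 31.5% for the rat, so the order of the species turned. It took 805 mouse and 448 rat sequences to reach 50% of the unshared reads, against 19 and 71 over all members. The database entries behind the unshared members numbered 2861 and 1886, and 81.7% and 75.3% of the sequences matched theirs with 0 mismatches.

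Lengths of the unshared members differed between the libraries by more than the counting error. Rat reads peaked at 29 and 30 nt, with 30.7% at 29 nt and 26.1% at 30 nt, and 67.4% at 29 to 31 nt (66.0 to 68.7). Mouse reads were spread over more lengths, with 19.4% at 29 nt, 15.8% at 28 nt and 12.5% at 24 nt, and 45.0% at 29 to 31 nt (43.7 to 46.2). The range of 26 to 28 nt held 35.7% of mouse reads against 21.4% of rat reads. PIWI proteins of the testis bind piRNAs of different lengths, and which protein held a read was not measured. Over all members the share at 29 to 31 nt was 70.5% and 73.4%, and among those shared with tRNA or rRNA 88.5% of mouse reads against 79.9% of rat reads were of that length. Within 26 to 32 nt the difference over all members turned, to 80.2% for the mouse against 79.7% for the rat.

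**Figure D1:**
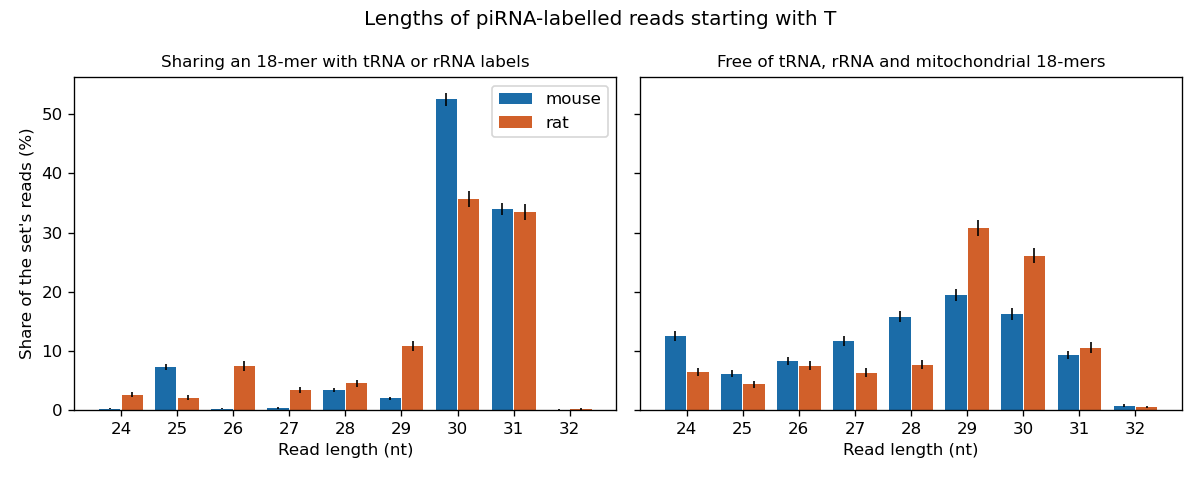
Share of reads at each length from 24 to 32 nt for members sharing an 18-mer with tRNA- or rRNA-labelled reads (left) and members free of tRNA, rRNA and mitochondrial 18-mers (right), with mouse in blue, rat in orange and bars for 95% counting intervals. The shared reads stand at 30 and 31 nt in both species, while the others peak at 29 nt, with 30.7% in the rat and 19.4% in the mouse.

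Bases 2 to 5 of the unshared members were uneven in both species, and in the same direction. Over distinct sequences, adenosine at base 2 stood in 40.2% of the mouse and 38.9% of the rat sequences, and guanosine in 36.8% and 32.4%. Guanosine at base 3 stood in 42.0% and 38.6%, and at base 4 in 47.7% and 41.2%. Adenosine at base 5 stood in 53.4% and 49.9%, while from base 6 to base 24 the lowest and highest shares of adenosine were 22.5% and 31.4% for the mouse, and 21.4% and 32.1% for the rat. The commonest first 5 bases were TAGGA, in 307 mouse and 169 rat sequences, followed by TGGGA, in 217 and 84, and TGAGA, in 151 and 82.

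Part of this pattern was also seen outside the piRNA label. Reads of 24 to 32 nt labelled mRNA, starting with T and free of the same 18-mers, had guanosine at base 4 in 50.9% of 1753 mouse sequences and 47.1% of 1557 rat sequences. Guanosine stood at base 3 in 47.2% and 43.0% of these, and at base 2 in 34.2% and 27.2%. Their adenosine was lower than in the members, with 20.2% and 20.6% at base 2 and 35.1% and 35.3% at base 5. The rat mRNA-labelled set was itself uneven, with cytidine at base 2 in 29.2% of sequences against 17.6% in the mouse. Guanosine at base 18 stood in 45.3% of its reads against 27.1% in the mouse, and adenosine at base 5 in 46.6% against 35.6%. How far alike sequences shape its shares was not tested. Unshared piRNA-labelled sequences with another first base had adenosine at base 5 in 42.0% of 443 in the mouse and 22.3% of 685 in the rat. In that rat set 342 of the sequences and 8206 of 9040 reads began with A, and 285 of the sequences, with 8024 reads, carried guanosine at base 5. Its reads were also much alike further in. Guanosine stood at base 7 in 92.1% and at base 10 in 92.2% of them, and adenosine at base 14 in 92.5%. Base 9 was more mixed, with guanosine in 61.3%. Most reads of the set thus belong to a family of closely alike sequences, which the 14-mer step above largely set aside. Most reads of that family thus held 14-mers of tRNA-, rRNA- or mitochondrially labelled reads, though no such 18-mer. Being free of 18-mers does not show that they come from other RNAs. The rat share of 22.3% is shaped by that family and is not a value for piRNA-labelled sequences in general.

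**Figure D2:**
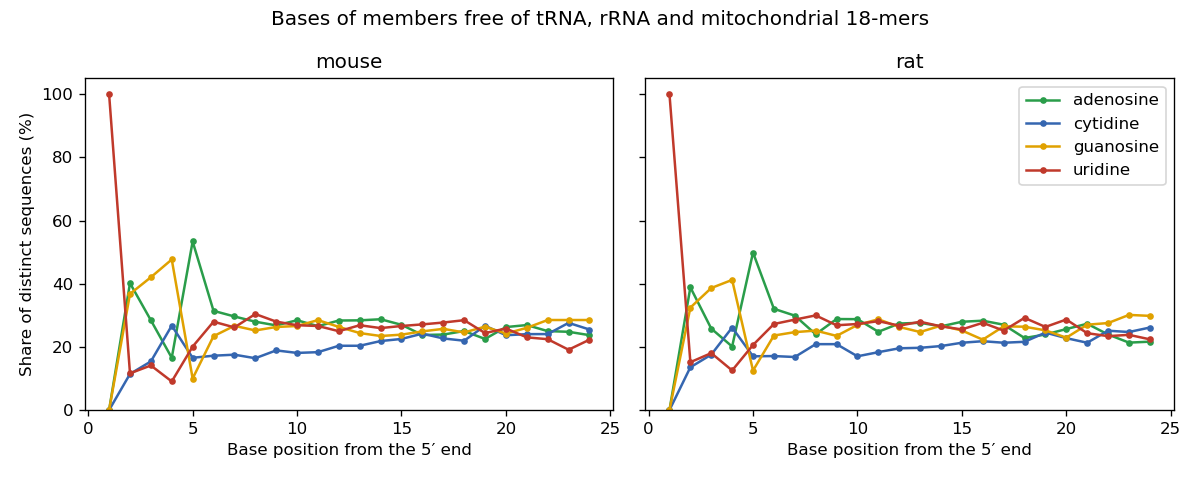
Share of each base at positions 1 to 24 from the 5′ end over distinct members free of tRNA, rRNA and mitochondrial 18-mers, with 3753 mouse sequences (left) and 2679 rat sequences (right). Uridine is fixed at base 1 by the choice of members, and adenosine at base 5 reaches 53.4% and 49.9%, while base 10 shows no peak.

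Adenosine at base 10, the mark of paired piRNAs, did not stand out among the members, which all start with T. Among unshared members, 26.5% of mouse reads (25.4 to 27.6) had it against 30.2% of rat reads (28.9 to 31.6), within the range of adenosine from base 6 to base 24, which was 22.7% to 31.1% and 20.7% to 31.7% of reads. Over distinct unshared sequences it was 28.4% and 28.8%. Over all members adenosine stood there in 11.3% of mouse reads against 15.7% of rat reads, and guanosine in 63.6% and 52.5%. Over distinct sequences of all members adenosine held 27.4% and 25.2%, and with 0 mismatches 22.0% and 20.7% of the reads, so its order between the species turned.

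Few members had a start complementary to the start of another piRNA-labelled read. With an overlap of 10 bases, 49 of 3753 unshared mouse members (1.31%) and 59 of 2679 unshared rat members (2.20%) had such a partner among the unshared reads. An overlap of 9 bases was met by 48 and 23 members, one of 8 bases by 130 and 102, and one of 11 bases by 4 and 2. In the rat the number at 10 bases was thus above that at 9. In the mouse it was about that at 9 and well above that at 11. Matches by chance become fewer with each added base, and how many chance would give at each length was not computed. Whether the numbers at 10 bases exceed chance was thus not tested. Starts that are their own reverse complement, 3 mouse and 1 rat members at 10 bases, would pair with themselves and were left out. Without sequences sharing 14-mers with tRNA, rRNA or mitochondrial labels, 47 mouse members paired over 9 bases and 43 over 10, while in the rat 21 and 59 did. The members with 10 bases came from 33 mouse and 35 rat starts of 18 nt. Of their partners, 31 of 48 (64.6%) and 42 of 53 (79.2%) began with T. Among all unshared piRNA-labelled sequences, from which the partners came, T began 89.4% and 79.6%. Without a genome match the paired reads cannot be placed at the same locus.

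The pairs with the most reads in the rarer partner, both starting with T, are shown with the 10 complementary bases in capitals.
Mouse member, 3 reads: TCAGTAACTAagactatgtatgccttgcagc
Mouse partner, 2 reads: TAGTTACTGAtgaactgttcagaaacgcct
Rat member, 47 reads: TTTAATCCCAgatctcaggaagcagaacc
Rat partner, 2 reads: TGGGATTAAAgatgtgaaccaccgcctgc
The first 10 bases of this rat member were the commonest among the 59, with 9 members, and its partner resembles B1, a short interspersed repeat of rodents. Leaving out these 10 bases and their complement left 46 rat members, and leaving out the commonest 10 bases of the mouse, with 5 members, left 44.

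**Figure D3:**
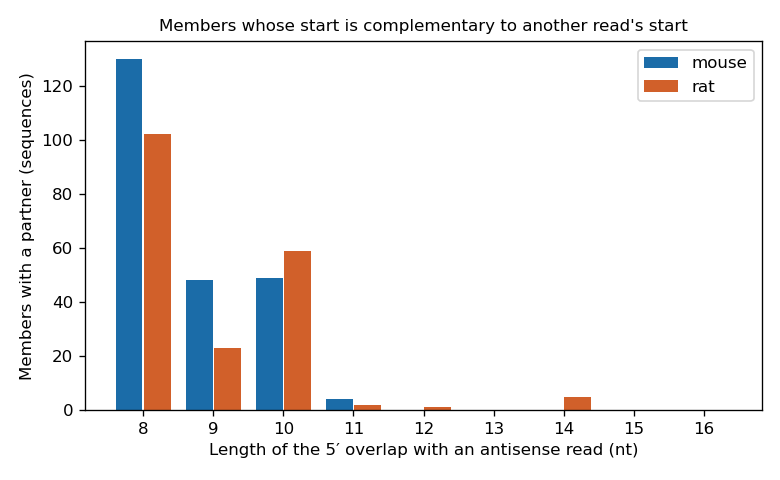
Number of distinct members, free of tRNA, rRNA and mitochondrial 18-mers, whose first 8 to 16 bases are the reverse complement of the start of another such piRNA-labelled read, for mouse (blue) and rat (orange). At 10 bases 49 mouse and 59 rat members have a partner, against 48 and 23 at 9 bases and 4 and 2 at 11 bases.

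Unshared members that overlapped each other mostly began at the same base. Among them, 71.3% of 2919 mouse pairs and 75.7% of 1850 rat pairs that overlapped by 18 bases or more, with starts at most 8 nt apart, had the same start. An offset of 1 base was seen in 7.78% and 5.41%. Since all members start with T, such a pair needs T at base 2 of the read that begins first. T stood there in 11.6% of the mouse and 15.2% of the rat unshared sequences. The lead of equal starts is thus in part fixed by the choice of members. Pairs with the same start differ in length or in a base after the first 18. Among members shared with tRNA or rRNA the same start was seen in 98.3% of 3012 pairs in the mouse but in 36.8% of 5013 pairs in the rat, where an offset of 1 base held 42.4% and of 2 bases 17.2%. Here too, an offset of 1 base needs T at base 2 of the read that begins first. The choice of T starts thus bears on this difference between the species, and how the fragments were cut was not tested. Rat members of the tRNA-Val sequence began at neighbouring bases, and the first start below has T at base 2. The start TTCCGtagtgtagtggtt had 39 sequences and 550 reads, and the start TCCGTagtgtagtggtta, 1 base further in, had 28 sequences and 247 reads.

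**Figure D4:**
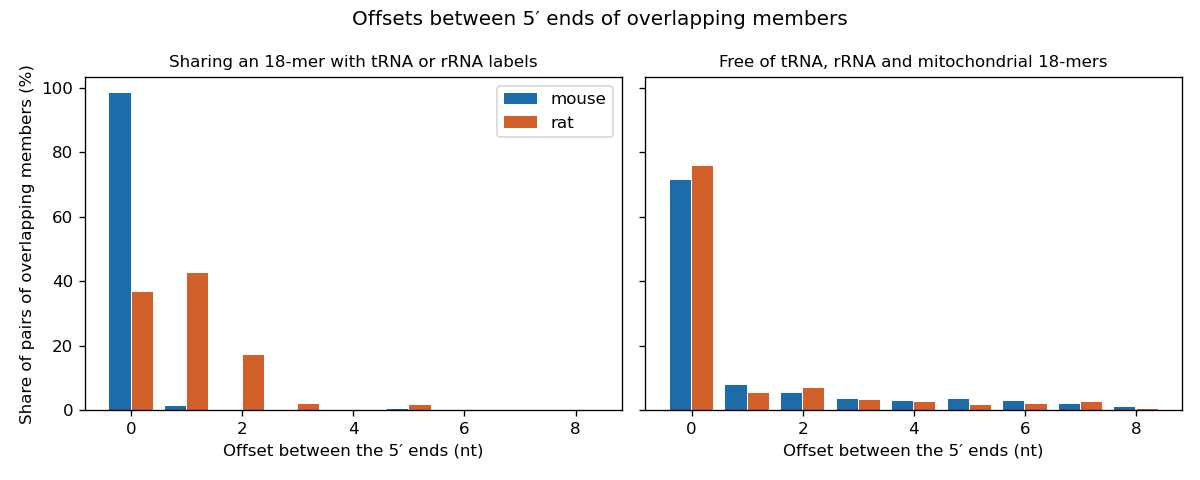
Share of pairs of overlapping members by the offset between their 5′ ends, from 0 to 8 nt, for members sharing an 18-mer with tRNA or rRNA labels (left) and members free of such 18-mers and mitochondrial ones (right), mouse in blue and rat in orange. Offset 0 holds 71.3% and 75.7% of the pairs on the right, and on the left 98.3% for the mouse against 36.8% for the rat. Since all members start with T, offsets above 0 need a further T inside the read that begins first.

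The length that led within a start held most of its reads in the abundant cases. Of the 2632 mouse and 1987 rat starts of 18 nt among unshared members, 626 and 401 had more than 1 sequence. The start TACGAgatcgtcccttaa had 6 sequences of 28 to 31 nt and 82 reads, 75 of them of 30 nt. In the rat TAGGAatctgtatgcttt had 7 sequences of 28 to 30 nt and 83 reads, 81 of them of 29 nt. The mouse start TTTCAcagatgggggaaa was spread wider, with 10 sequences of 24 to 30 nt and 36 of 59 reads at 27 nt.

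Few unshared members were common to both species. Exactly the same sequence was an unshared member in both in 34 cases, which held 119 mouse and 153 rat reads, or 2.01% and 3.21% of the unshared reads. The start TTTCAcagatgggggaaa gave 7 of the 34, with 55 mouse and 22 rat reads. Its 27-nt form TTTCAcagatgggggaaactgaggccc had 35 mouse reads (24.4 to 48.7) and 5 rat reads (1.62 to 11.7). The sequence TATTGtagataaaagggacagcataccaga had 3 mouse reads (0.619 to 8.77) and 42 rat reads (30.3 to 56.8), and TAGGAtcatgtggttctgactcagcct had 14 and 6. Over all members, by contrast, 57.6% of the mouse reads had their sequence in the rat table under any label, 7028 of these 8302 reads under tRNA. They came from 171 of 4057 sequences (4.21%). Of the rat member reads 10.96% had theirs in the mouse table, from 60 of 3089 sequences (1.94%). The tables differ in depth, with 691381 mouse and 2102735 rat reads, which bears on both shares.

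A small part of the mouse members could be placed on annotated transcripts. Of the unshared mouse members 467, or 12.4%, matched a GENCODE M21 transcript of GRCm38 exactly on either strand, and 415 of them at 1 place. Of these, 356 (85.8%) lay in sense and 59 only in antisense. Among the 356 in sense, 300 (84.3%) lay on non-coding transcripts alone, 37 in a 3′ UTR and 4 in a coding exon. In the rat only 36 unshared members matched a mouse transcript, since the reference is of another species. Members outside annotated exons were not placed.

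Of the 12 genes with the most of these members, 11 are annotated as lincRNAs, long non-coding RNAs between genes. Gm21269, a lincRNA on the plus strand of chromosome 7 at 73816546 to 73838898, had 62 unshared members in sense with 126 reads, of which the highest had 16. Gm10619, on the minus strand at 73781429 to 73816503, had 20 with 26 reads, and its annotated start lies 42 bases from that of Gm21269 in the opposite direction. Gm49794, on chromosome 17 at 27354111 to 27367492 (plus), had 41 with 66 reads, and Gm5878, on chromosome 6 at 85111416 to 85126125 (minus), had 17 with 42 reads. Then came 1700029M20Rik on chromosome 4 with 13 members, 4933440M02Rik on chromosome 7 with 13, 1700001L05Rik on chromosome 15 with 12 and D130017N08Rik on chromosome 5 with 12. The protein-coding gene of the 12, Nemp1, which encodes an inner nuclear membrane protein, had 10 with 15 reads. None of these 12 had an unshared member in antisense only.

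**Figure D5:**
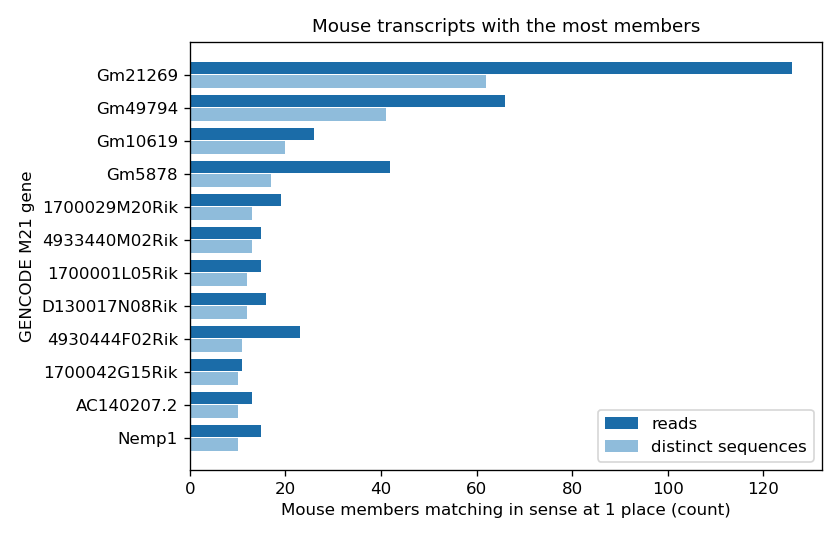
Distinct mouse members free of tRNA, rRNA and mitochondrial 18-mers (light bars) and their reads (dark bars) that match in sense at 1 place, for the 12 GENCODE M21 genes with the most of them. Gm21269 leads with 62 sequences and 126 reads, and Gm49794 follows with 41 and 66.

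By windows of 100 kb, 433 mouse members with 1 place fell into 75 windows, and the 10 with the most reads held 79.8% of their 1457 reads but 206 of the sequences (47.6%). The first 2 windows rested on 1 sequence each, both sharing 18-mers with rRNA or tRNA labels, and held 37.1% and 15.1% of the reads. The first was the 5S-like read in Tmem38b with 541 reads. The third and the fourth were chromosome 7 at 73800001 to 73900000, with 79 members and 149 reads, of which 62 members lay on the plus and 17 on the minus strand, and chromosome 17 at 27300001 to 27400000, with 48 members and 73 reads, 47 of them on the plus strand. In the other 6 of the 10 windows, with 7 to 17 members each, all members lay on 1 strand.

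The start shared by Gm10619 and Gm21269 is shown because both transcripts with members leave from it in GENCODE. It is the RefSeq promoter of Gm10619 (GRCm38.p6, minus strand, chr7:73816454-73816753), 300 bases read 5′ to 3′, with matches to CAGTTG on either strand in capitals (CAACTG is its reverse complement). CAGTTG is a core that the MYB family of factors binds, and the family member MYBL1 is known to switch on piRNA precursors in meiosis.
Gm10619 promoter: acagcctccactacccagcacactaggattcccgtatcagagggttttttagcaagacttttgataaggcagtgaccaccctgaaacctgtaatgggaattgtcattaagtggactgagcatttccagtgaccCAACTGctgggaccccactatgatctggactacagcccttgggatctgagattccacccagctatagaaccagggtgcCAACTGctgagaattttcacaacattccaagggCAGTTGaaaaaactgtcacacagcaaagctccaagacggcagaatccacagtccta
It held 3 matches. RefSeq places the promoter of Gm21269 elsewhere, at chr7:73825674-73825973 on the plus strand, with 1 match, so the shared start is that of GENCODE alone. Of the 15 genes with the most members, 10 had a promoter in the RefSeq table and 6 of these held the motif, Gm21388 in 1 of its 3 entries. Of 32851 promoters of the same length 13.7% held it. The genes were chosen by their members. A match does not show binding.

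Bases next to the reads were taken from the transcripts for the unshared mouse members with 1 place in sense. Just before the read guanosine stood in 9.35% of 353 (6.52 to 12.9), and cytidine was in 37.7% (32.6 to 43.0). Just after it uridine stood in 25.8% of 356 (21.4 to 30.7), and at the next 5 bases it ranged from 21.6% to 29.8%. Uridine just after the read, a mark of piRNAs cut one after another from 1 precursor, thus did not stand out at this number of sequences.

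In the mouse 7 members with 9 reads shared an 18-mer with reads labelled as mature miRNA, and in the rat 4 members with 19 reads did. The most abundant, TAGGCagtgtaattagctgattgt with 16 reads, matched exactly in sense to Mir34b of the mouse, on the minus strand of chromosome 9 at 51103610 to 51103633 in GRCm38. miR-34b is a miRNA of the male germ line, and these reads carry the piRNA label in the rat table.

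Reads of the piRNA pathway's own transcripts were counted among the mRNA-labelled reads of mouse sperm. Of 22 genes of the pathway, 10 had exact sense matches to 1 gene, with 17 reads together. Of 62294 mRNA-labelled reads, 23148 matched a transcript, and the share over all genes was not computed. Tdrd6, a scaffold of the germ granule of spermatids, had 6 reads, and Piwil1, the PIWI protein of pachytene piRNAs, and Gtsf1, a PIWI cofactor, had 2 each. Single reads matched Mybl1, Tdrd1, Tdrd7, Tdrd12, Pld6, Henmt1 and Mael.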

How the data were processed

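Small RNAs of 1 mouse and 1 rat sperm library were measured. The deposited values are raw read counts per distinct sequence, and the authors assigned each sequence to a miRBase, Rfam or GenBank entry allowing 2 mismatches or fewer, per the file headers. The builds mm9 and rn5 and Bowtie 0.12.7 are named in the submitters' processing notes, with no role given. Sequences matched on the minus strand were turned to the read's 5′ to 3′ direction. Mouse rows in which a month replaced the identifier and the count was lost (2535) have no count.

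Here, 18-mers of tRNA-, rRNA- and mitochondrially labelled reads of the same library were searched in members on the same strand. Exact matches used GENCODE M21 transcripts (GRCm38), with no rat reference and no genome. Shares have exact Clopper-Pearson 95% intervals and counts exact Poisson ones, from scipy 1.17.1 in Python 3.11.15. Depth was 691381 and 2102735 reads. PCR copies are not independent molecules. The word, overlap and offset steps were tested on simulated data.

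The rule for naming took the 5 most abundant members and unshared members of each library, the 3 most abundant unshared in both, the 3 largest starts, the 10 leading windows of 100 kb and a list of pathway genes. Of the 5 most abundant mouse members only the third is named, and the others are not reported here. Genes, the motif and the pairs shown were chosen after seeing values. The members and lists were chosen with earlier results of these data known. Alternatives covered lengths, weights, mismatches, counts and word lengths.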

Additional observations from a re-analysis of the deposited data

Results flagged for a closer look

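Mouse members without a count, 84 sequences, lie outside the counted data. Reading the month in place of their identifier as the count gives 7 to 12 reads each and 772 reads together. Of these sequences 63, with 570 reads, are free of tRNA, rRNA and mitochondrial 18-mers. Whether the month stands for the count was not tested.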

How the results depend on the processing

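No paired analysis was possible because each species has 1 library. Values are mouse minus rat, in percentage points. The share at 29 to 31 nt, -2.90, became -17.3 over distinct sequences, -22.4 without sequences sharing 18-mers, -25.7 with 0 mismatches, -0.773 with at least 2 reads, -13.1 without the 10 most abundant members and 0.552 within 26 to 32 nt. Adenosine at base 10, -4.35, became 2.26 over distinct sequences, 1.23 with 0 mismatches, -5.71 with at least 2 reads and -2.33 without the 10 most abundant. Sharing with tRNA or rRNA, 10.2, became -5.80 over distinct sequences, -16.2 with 0 mismatches, 11.7 within 26 to 32 nt, 0.313 without the 10 most abundant, 8.58 with months read as counts, 8.69 by 16-mers and 7.72 by 18-mers of at least 10 reads. T at base 1, 54.7, became 17.8 over distinct sequences, 53.1 without sharing sequences, 56.8 within 26 to 32 nt, 53.5 with 0 mismatches and 44.7 without the 10 most abundant. The share of the 10 most abundant members, 13.4, became -3.61 without sharing sequences, -12.6 with 0 mismatches and 11.1 with months read as counts. Setting aside sequences that share 14-mers, chosen after seeing the data, gave -23.8 for 29 to 31 nt and 5.83 for T at base 1, and left 43 mouse and 59 rat members with a 10-base overlap. The causes were not tested. Of the unshared members 74.7% and 77.7% were seen in 1 read, so the precision of single sequences is low.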
